A study of Mus musculus with 9 samples.

Results

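Wide bidirectional regions are stretches of at least 1000 bp over which a caller of bidirectional transcription placed 1 region, and they are described here across 0, 15 and 30 min of doxycycline in mouse embryonic stem cells. Members were taken by the width of each region in the authors' merged list on mm10, end minus start, and 17190 of 174289 regions (9.86%) reached 1000 bp. They are set beside 101404 narrow regions of 200 to 500 bp, weighted so that their mean counts had the same distribution as those of the wide regions. The assay was PRO-seq, a nuclear run-on that labels the RNA made by engaged RNA polymerase, and reads were counted in a window of 600 bp around each region's centre. There were 3 groups of 3 libraries, and all cells carried a Firre knockout and an inducible Firre transgene: 0 min without doxycycline, 15 min at 1 ng/μL doxycycline and 30 min at 1 ng/μL doxycycline. The Firre gene lies on the X chromosome, and its lncRNA stays in the nucleus. The cells grew on gelatin in serum with LIF and inhibitors of MEK and GSK3, and 1% Drosophila S2 nuclei were mixed into each preparation. Cells lacking the transgene were not given doxycycline in these samples, so effects of the drug and of the transgene cannot be told apart. Separate cultures are not named in the labels, so each p-value measures the spread among 3 libraries a time, which may be technical.

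RNA polymerase II often starts in both directions from 1 stretch of open chromatin, both at promoters and at enhancers. At a promoter one of the transcripts becomes the gene's RNA and the other is usually short and unstable, while at an enhancer both are usually short. A caller reads such a site from paired peaks of nascent RNA on opposite strands, and the width it reports takes in the distance between the peaks and their spread. In embryonic stem cells, dense clusters of enhancers surround genes of cell identity such as Sox2 and Nanog. A wide region can hold a pair of genes that start back to back, several sites close together, or transcription without sharp starts.

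The libraries held 3813365 to 5980366 reads in all regions. The summed level of 13 regions at Firre and the overlapping Gm35612 was 3.54 to 6.94 CPM (counts scaled to a common total of reads in regions, with TMM factors) at 0 min, 312 to 385 CPM at 15 min and 877 to 884 CPM at 30 min. None of these 13 regions was wide. Of 10 markers of naive and core embryonic stem cells, 9 had a region at the start, and their summed level was 1893 to 2037 CPM at 15 min, 1899 to 2016 CPM at 30 min and 1849 to 2002 CPM at 0 min. Of 8 feeder fibroblast markers 4 had a region there, with a summed level of 2.86 to 6.0 CPM at 15 min, 3.17 to 4.55 CPM at 30 min and 2.24 to 7.60 CPM at 0 min. Primitive endoderm markers (5 of 8 with a region) summed to 14.5 to 23.8 CPM at 15 min, 15.9 to 20.7 CPM at 30 min and 15.7 to 22.0 CPM at 0 min. Primed and early lineage markers (6 of 8) summed to 11.8 to 16.8 CPM at 15 min, 11.9 to 13.8 CPM at 30 min and 14.2 to 22.8 CPM at 0 min, so 30 min lay below 0 min without overlap, and the part of this in later results was not tested. On the second principal component, which held 13.9% of the variance, library 3 at 15 min lay at 85.6 and library 2 at 0 min at -55.1. The other libraries lay between -26.9 and 16.5. Library 2 at 0 min also lay apart from its group on the first component, at -37.4 against -80.7 and -77.9. Results that rest on library 3 at 15 min are given with and without it.

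Promoters under wide regions were rich in CG pairs. The sequences shown are the 250 bases before the RefSeq start (GRCm38.p6, the same assembly as mm10) of 5 genes whose start lay inside a wide region with one of the largest called falls at 15 against 0 min. The Marchf9 start lay 791 bp from its region's centre, outside the 600 bp window counted. The fall there was thus not measured at the promoter shown. Each is written 5′ to 3′ on the gene's strand, and capitals mark matches on either strand to the TATA box (TATAAA), the CAAT box (CCAAT), the GC box core (GGGCGG) or the NRF1 palindrome. Adjacent matches run together where they overlap. The promoters lie at chr8:71671758-71672007 (minus strand) for Unc13a, chr8:70863259-70863508 (minus strand) for Kcnn1, chr10:127060185-127060434 (minus strand) for Marchf9, chr5:37029624-37029873 (minus strand) for Gm52814 and chr19:46305445-46305694 (plus strand) for Nfkb2.
Unc13a promoter: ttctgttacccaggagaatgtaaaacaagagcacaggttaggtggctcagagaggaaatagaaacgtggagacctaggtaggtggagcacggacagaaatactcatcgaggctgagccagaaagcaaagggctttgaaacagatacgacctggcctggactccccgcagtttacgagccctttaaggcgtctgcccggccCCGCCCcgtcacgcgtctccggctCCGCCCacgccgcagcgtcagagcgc
Kcnn1 promoter: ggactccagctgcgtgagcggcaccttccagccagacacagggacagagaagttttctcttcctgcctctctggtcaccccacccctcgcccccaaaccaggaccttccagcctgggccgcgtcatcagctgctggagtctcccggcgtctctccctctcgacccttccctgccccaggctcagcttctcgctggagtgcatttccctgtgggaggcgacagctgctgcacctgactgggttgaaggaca
Marchf9 promoter: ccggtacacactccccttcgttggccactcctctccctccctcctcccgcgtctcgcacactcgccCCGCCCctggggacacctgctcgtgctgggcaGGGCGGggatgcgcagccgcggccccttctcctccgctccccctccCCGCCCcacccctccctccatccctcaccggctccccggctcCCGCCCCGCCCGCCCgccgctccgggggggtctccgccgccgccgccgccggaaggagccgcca
Gm52814 promoter: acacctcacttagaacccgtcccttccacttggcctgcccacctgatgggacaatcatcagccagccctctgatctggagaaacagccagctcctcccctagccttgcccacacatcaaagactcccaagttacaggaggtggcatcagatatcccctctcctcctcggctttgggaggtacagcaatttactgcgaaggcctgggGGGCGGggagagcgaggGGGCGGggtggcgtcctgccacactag
Nfkb2 promoter: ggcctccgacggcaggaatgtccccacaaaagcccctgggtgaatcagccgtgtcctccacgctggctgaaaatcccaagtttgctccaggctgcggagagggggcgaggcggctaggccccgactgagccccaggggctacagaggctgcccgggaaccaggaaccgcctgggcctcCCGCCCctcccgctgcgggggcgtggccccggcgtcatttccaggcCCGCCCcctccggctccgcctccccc

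The GC box, which SP factors bind, was found with its core GGGCGG on either strand in 4 of these promoters, and Kcnn1 held none of the 4 motifs. The Marchf9 promoter had 78.4% GC and 29 CG pairs, while Unc13a had 58.0% GC and 18 CG pairs. Over the 2787 RefSeq starts inside wide regions, the median promoter had 60.4% GC and 16 CG pairs, and 56.9% held GGGCGG. The 2955 starts inside narrow regions had a median of 59.2% GC and 14 CG pairs, and 53.5% held GGGCGG, so the promoters under wide regions were close to those under narrow ones. Over all 32851 promoters the values were 52.4% GC, 6 CG pairs and 32.7%. Wide regions called lower at 15 min covered 367 starts, with a median of 63.2% GC and GGGCGG in 72.2%. Those called higher covered 104 starts, with a median of 50% GC and GGGCGG in 23.1%. TATAAA was present in 2.45% of the promoters under falling regions, 21.2% of those under rising ones and 12.4% of all promoters. Starts of 1 gene or 1 region share sequence, so these shares are descriptions without a test. A start inside a wide region can also lie outside its 600 bp window, and the change at that start was then not measured. The direction of calls at gene starts depends on the scaling, and with TMM factors from gene starts alone GGGCGG stood in 72.5% of 167 starts under falling and 37.6% of 205 under rising regions, and TATAAA in 1.20% and 15.1%. Motifs are read here as letters, and a match is not a bound site.

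The wide regions had a median width of 1450 bp against 342 bp over all regions. Of them 7947 reached 1500 bp, 1863 reached 3000 bp, and the widest had 9196 bp. They held 33.9% of the summed width of all regions, 30.6 of 90.4 Mb. The counting window took in a median of 41.4% of a wide region and, for the widest, 6.52%, so the counts describe the centre and not the flanks. Above 4000 bp the number of regions did not fall smoothly. There were 36 regions from 4000 to under 4050 bp, 243 from 4050 to under 4100 bp and 59 from 4100 to under 4150 bp. The 243 lay inside genes in 64.2% of cases and at gene starts in 4.53%, a set picked after the widths were seen. At the threshold, 2712 regions from 1000 to under 1100 bp had a median mean count of 20.8 and 3626 regions from 900 to under 1000 bp had a median of 17.7.

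Wide regions carried more reads than the rest. Their median mean count was 42.4 reads per window and library, against 2.11 for narrow regions and 3.0 for all regions. Width and mean count were correlated, with a Spearman coefficient of 0.297 over the 17190 wide regions and 0.555 over all 174289, which share libraries and depth. The labels do not say which libraries went into the region calls, so width and count may rest on the same reads. For this reason the narrow regions were weighted by mean count, which brought their median to 42.6. A further difference remained after weighting, in that 0.209% of wide windows (36) but 37.5% of count-matched narrow windows overlapped another window and could share its reads.

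Wide regions lay less often at gene starts and more often inside genes than narrow regions of the same count. The centre was within 1 kb of a gene start for 17.9% of wide regions (3069) and 35.3% of count-matched narrow regions, or 32.1% of those whose windows overlap no other. It was inside a gene, away from the start, for 44.8% of wide regions (7704) and 29.5% of count-matched narrow ones. It was outside genes for 37.3% (6417) and 35.2%. Before weighting, 10.4% of narrow regions lay at gene starts, so matching on count turned the direction of this difference. Exons and introns were not used here.

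**Figure D1:**
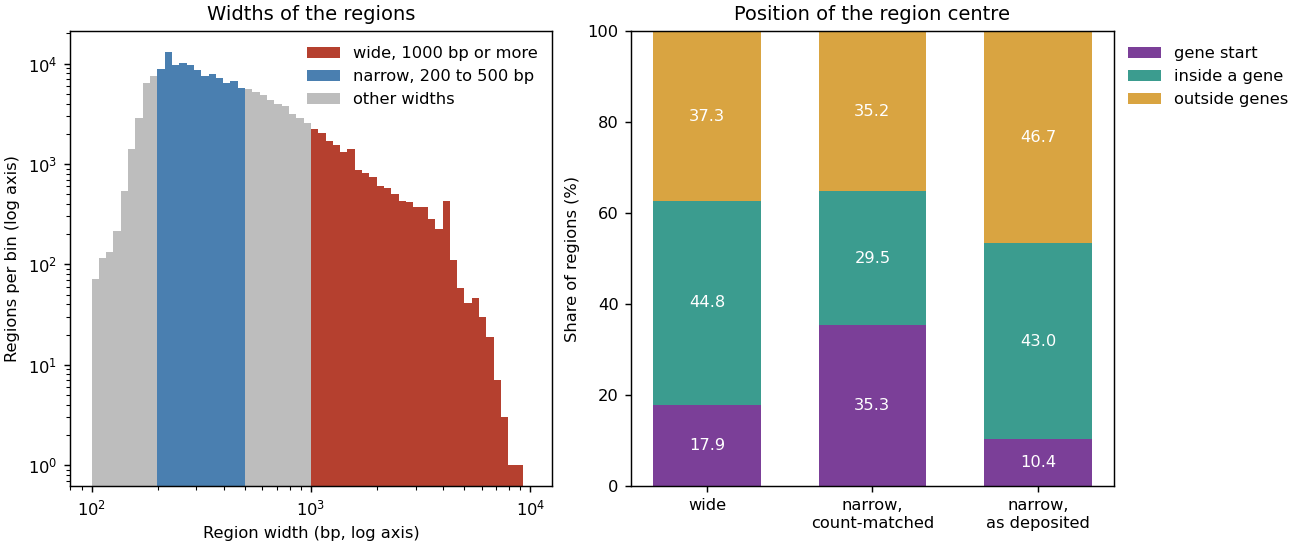
Left, number of regions in each bin of width, both axes logarithmic, with wide regions in red, narrow regions in blue and other widths in grey. Right, share of regions in percent whose centre lay at a gene start, inside a gene or outside genes. The gene-start share is 17.9% for wide regions, 35.3% for count-matched narrow regions and 10.4% for narrow regions as deposited, and the bin just above 4000 bp stands out from its neighbours.

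The position within each class also differed. Outside genes, wide regions lay closer to a gene, with a median distance of 8.25 kb against 20.4 kb for count-matched narrow regions. Inside genes of known strand (6028 of 7704 wide regions), the host gene had a median length of 52.7 kb for wide regions and 82.8 kb for narrow ones. At gene starts, position relative to the start was taken only where the strand was known (2158 of 3069 wide regions). Of these, 60.2% of wide and 44.8% of count-matched narrow regions had their centre within 200 bp of the start. The median offset was -9 bp for wide regions, which is upstream. Of the wide regions at gene starts, 76.1% belonged to a protein-coding gene and 21.1% to a lncRNA gene, against 85.7% and 10.4% of the narrow ones. Chromosome X held 3.10% of wide and 4.67% of count-matched narrow regions. These shares have no test, since regions are not replicates.

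A gene start lay inside 2125 wide regions, or 12.4%, and inside 12.2% of count-matched narrow regions despite the difference in length. Of these, 1785 held the start of 1 gene. Another 264 held a divergent pair, 2 genes that start back to back and run apart, with a median of 177.5 bp between the starts. Starts that overlap or face each other were found in 65, and starts of several genes on 1 strand in 11. The wide region at the NF-κB subunit gene Nfkb2 (chr19:46304660-46306703) held the plus-strand start of Nfkb2 and the minus-strand start of 4833438C02Rik. The one at Rps2, a protein of the small ribosomal subunit, also held Snhg9 on the other strand. The strand counted is not given in the sources used here, so reads of the genes of a pair, or of a gene and its antisense partner, cannot be told apart. Divergent wide regions had a median mean count of 332.5, against 209.7 for those with 1 gene.

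Wide regions stood at the starts of many genes of embryonic stem cell identity. Of 12735 protein-coding genes with any region within 1 kb of a start, 2649 (20.8%) had a wide one. Among 20 listed identity genes with a region there, 15 (75%) had a wide one, including Sox2, Nanog, Klf4, Prdm14, Tbx3, Nodal and Fgf4. Of the ribosomal protein genes 12 of 24 (50%) had one, among them Rpl3, Rpl8 and Rps2. Immediate early genes, which respond within minutes to growth signals, had one in 2 of 17 cases (11.8%), Jun and Dusp6. Regulators of other lineages, mostly held silent by Polycomb in these cells, had one in 4 of 15 (26.7%), among them Gata2, Neurog1 and Olig2. Genes of RNA polymerase II pausing, elongation and termination had one in 8 of 23 (34.8%), and nuclear lncRNA genes in 6 of 15 (40%). None of the 5 primitive endoderm, 4 feeder and 6 primed marker genes with a region had a wide one. Their start regions had low levels, the highest being Lama1 at a mean of 11.4 CPM. At such levels few coding genes had a wide region, so this absence is no result about these lists.

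The share with a wide region moved with the level of the gene's strongest start region, so the lists are best read beside genes of like level. Coding genes under 1 CPM had a wide region in 3.36% of cases and those of 1 to 10 CPM in 9.24%. Those of 10 to 30 CPM had one in 15.0%, those of 30 to 100 CPM in 32.4% and those of 100 CPM and up in 73.8%. At 100 CPM and up, 10 of 11 identity genes and 12 of 19 ribosomal protein genes had one. From 30 to 100 CPM, the counts were 4 of 6 identity genes, 0 of 5 ribosomal protein genes and 2 of 6 immediate early genes.

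**Figure D2:**
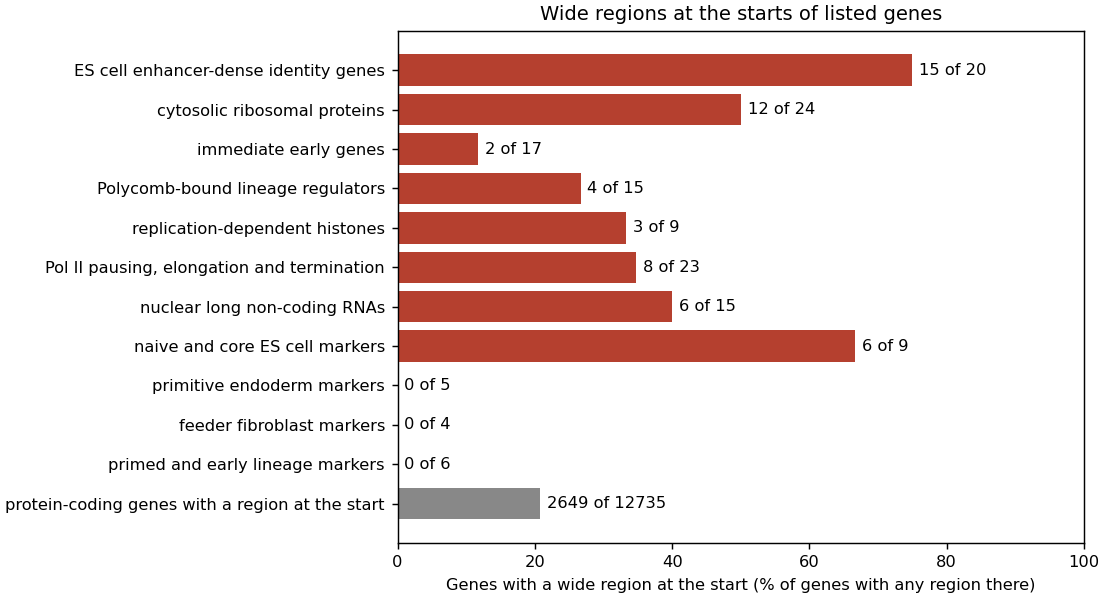
Share, in percent, of genes with a region within 1 kb of the start that had a wide region there, for each list in red and for all protein-coding genes in grey, with counts beside the bars. Identity genes reach 75% (15 of 20) and coding genes 20.8% (2649 of 12735). The 3 marker lists of other cell types are at 0, and their start regions had low levels.

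The listed genes had too few tested wide regions for the number of calls to be read as a result about the lists. The region at Dppa5a, a gene of early embryonic cells (chr9:78366386-78370221), had 552, 596 and 630 CPM in the 3 libraries at 0 min, 586, 614 and 637 CPM at 15 min and 596, 610 and 623 CPM at 30 min. The groups overlapped. At Nanog, a core pluripotency factor, the levels were 310, 352 and 287 CPM at 0 min, 314, 293 and 257 CPM at 15 min, and 306, 314 and 313 CPM at 30 min, again with overlap. Among 15 tested wide regions of identity genes 1 was called higher at 15 against 0 min, where 4.29% of all tested regions were called higher and 3.96% lower (8.25% in all), and none was called in the other comparisons, in which 1.74% and 0.704% of all tested regions were called. This was the 5354 bp region at Prdm14, a repressor of differentiation genes, with 129, 145 and 143 CPM at 15 min against 99.5, 112 and 110 CPM at 0 min and a log2 change of 0.38 ± 0.11 (SE; edgeR adjusted p = 0.027). The call was lost in 4 of the 9 fits that leave out 1 library, those without libraries 1 or 3 at 0 min, library 2 at 15 min or library 2 at 30 min. Of 12 ribosomal regions 1, at Rpl3, was called higher at 15 min (0.27 ± 0.08, edgeR adjusted p = 0.038), and the call was lost in 8 of the 9 fits that leave out 1 library, all but the one without library 3 at 15 min.

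The remaining lists were likewise too small to be set against the shares called over all tested regions. These shares were 8.25% at 15 against 0 min and 1.74% at 30 against 0 min. At Cdk9, the kinase of the elongation factor P-TEFb, the wide region was called lower at 15 against 0 min (-0.46 ± 0.14, edgeR adjusted p = 0.043), with 69.5, 62.7 and 96.7 CPM at 15 min against 110, 95.1 and 108 CPM at 0 min. This call was lost without libraries 1 or 3 at 0 min or libraries 1 or 2 at 15 min. At Hexim1, which holds P-TEFb inactive, levels lay between 1049 and 1189 CPM in all 9 libraries and no comparison was called. The lncRNA gene Dleu2 was called lower at 15 min (-0.69 ± 0.14, edgeR adjusted p = 0.0031), with 45.8, 38.9 and 58.5 CPM at 15 min against 82.5, 66.7 and 80.2 CPM at 0 min, and stayed called whichever library was left out. Neat1, the lncRNA of paraspeckles, was called higher at 30 against 0 min (0.33 ± 0.09, edgeR adjusted p = 0.046), with 498, 488 and 508 CPM at 30 min against 391, 396 and 397 CPM at 0 min, but the call was lost when any 1 of the 6 libraries compared was left out. Jun and Dusp6 were not called in any comparison.

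The test asked which wide regions changed between times. Of the 17190 wide regions, 13773 (80.1%) passed the filter on low counts and were tested, against 18.6% of narrow regions, and 3417 were not tested. A region was called when its Benjamini-Hochberg adjusted p over all 54299 tested regions was under 0.05 in edgeR's quasi-likelihood test. At 15 against 0 min, 1316 wide regions were higher and 863 lower, 15.8% of those tested, beside 8.25% of all tested regions (4.29% higher and 3.96% lower). At 30 against 0 min, 460 were higher and 139 lower, 4.35% beside 1.74% of all tested regions (1.24% higher and 0.497% lower). At 30 against 15 min, 75 were higher and 209 lower, 2.06% beside 0.704% (0.214% higher and 0.49% lower). These comparisons share libraries with each other, and in bulk libraries a change in fewer cells and a smaller change in all cells cannot be told apart.

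The wide regions were called more often than narrow regions of the same count. Count-matched narrow regions were called in 6.72% at 15 against 0 min, 1.02% at 30 against 0 min and 0.976% at 30 against 15 min. Before weighting, 809, 92 and 28 of 18886 tested narrow regions were called in these comparisons (4.28%, 0.487% and 0.148%). The smallest matching bin held 28 narrow regions. The weighted shares of the 2 later comparisons thus rest on few called regions and are uncertain. The typical change at 15 against 0 min was also larger, with a median size of the log2 change of 0.31 for wide and 0.25 for count-matched narrow regions. The median signed change there was 0.04 for wide and 0.03 for count-matched narrow regions. The median sizes were 0.247 and 0.193 at 30 against 0 min, but alike at 30 against 15 min (0.196 and 0.193). At gene starts alone they were also alike at 30 against 0 min (0.163 and 0.162). Within the wide regions, 10.6% of those from 1000 to under 1200 bp, 11.7% of those from 1200 to under 1500 bp and 20.3% of those of 1500 bp and wider were called at 15 against 0 min, while the median mean count of these classes was 23.2, 28.7 and 68.0. Just inside the width limit, from 1000 to under 1100 bp, 10.3% were called, and just outside it, from 900 to under 1000 bp, 9.57% were.

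The totals depended on single libraries. At 15 against 0 min, 1230 wide regions were called without library 1 at 0 min, 1272 without library 1 at 15 min and 1210 without library 2 at 15 min. At 30 against 0 min, the number was 118 without library 1 and 320 without library 3 at 0 min, and 198, 247 and 167 without libraries 1, 2 and 3 at 30 min. At 30 against 15 min it was 153 and 151 without libraries 1 and 2 at 15 min, and 147, 120 and 166 without libraries 1, 2 and 3 at 30 min. Without library 2 at 0 min the totals were 2091 at 15 against 0 min, 633 at 30 against 0 min and 299 at 30 against 15 min. Of the 1316 higher and 863 lower regions at 15 min, 579 and 304 stayed called whichever library was left out. At 30 against 0 min 74 of 460 higher and 15 of 139 lower regions did, and at 30 against 15 min 12 of 75 and 81 of 209.

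The direction of the calls differed by position. At 15 against 0 min, wide regions outside genes were called higher 697 times and lower 153 times of 4881 tested, with a median log2 change of 0.20. Those inside genes were called higher 498 and lower 352 times of 6008, with a median of 0.03. Those at gene starts were called higher 121 and lower 358 times of 2884, with a median of -0.13, and the lower count was 622 without library 3 at 15 min. Over all tested regions, the shares higher and lower at 15 min were 6.64% and 1.58% outside genes, 4.08% and 3.21% inside genes, and 1.47% and 8.11% at gene starts. The direction by position was thus shared by all regions. At 30 against 0 min the counts for wide regions were 254 higher and 25 lower outside genes, 170 and 78 inside genes, and 36 and 36 at gene starts. Without library 3 at 15 min, 55 gene-start regions were higher and 87 lower. Over all tested regions the shares at 30 against 0 min were 1.93% and 0.218% outside genes, 1.21% and 0.604% inside genes, and 0.377% and 0.727% at gene starts. The split at gene starts turned with the scaling. With TMM factors from gene starts alone, which shift the median of all regions by 0.17 at 15 min and 0.12 at 30 min, 226 gene-start regions were higher and 155 lower at 15 min, and all wide regions split into 2079 higher and 357 lower.

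At 15 against 0 min, narrow regions of the same count showed smaller shares in each class. Outside genes, 14.3% of wide and 4.0% of count-matched narrow regions were higher, and 3.13% and 1.29% were lower. At gene starts, 4.2% of wide and 3.11% of narrow regions were higher, and 12.4% and 5.27% were lower. Rises exceeded falls outside genes, and falls exceeded rises at gene starts, in both width groups at 15 against 0 min under this scaling. In the other comparisons a few narrow shares were the larger. For example, 0.832% of wide and 1.10% of count-matched narrow regions at gene starts were lower at 30 against 15 min. That narrow share rested on 3 lower calls among 4828 tested regions, 0.062% before weighting. The smallest of its matching bins held 5 narrow regions, so it shows no excess of narrow calls.

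**Figure D3:**
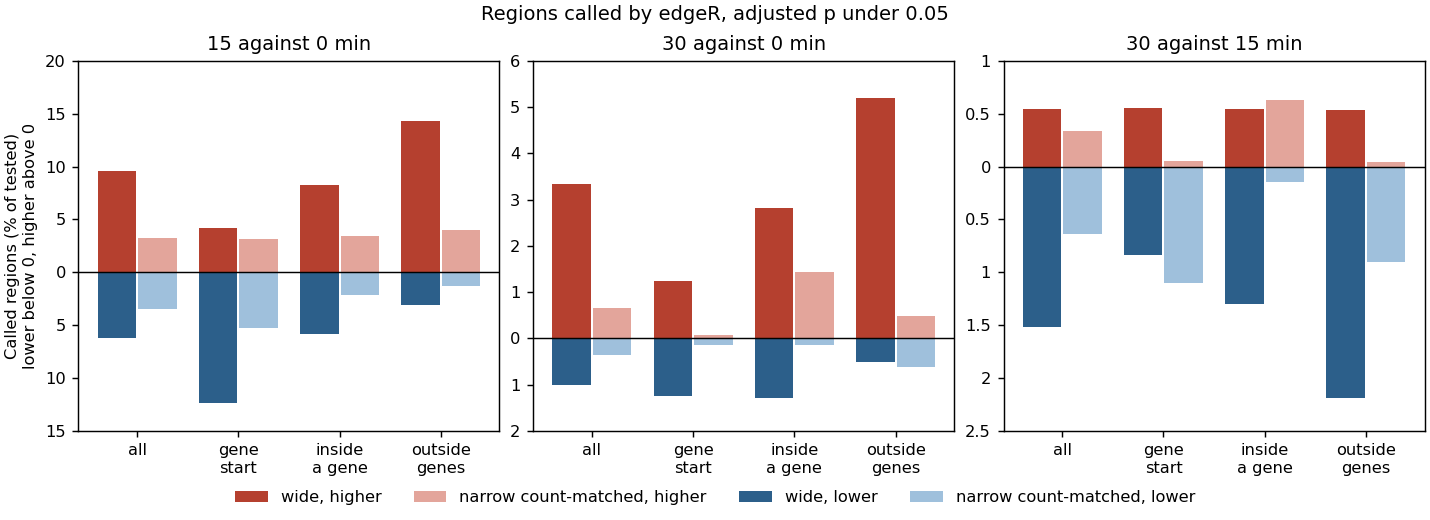
Percent of tested regions called higher (above 0) and lower (below 0) in the 3 comparisons, for wide regions in dark colours and count-matched narrow regions in light colours, over all regions and by position, with a separate vertical scale in each panel. At 15 against 0 min, 14.3% of wide regions outside genes were higher and 12.4% of wide regions at gene starts were lower.

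Levels per library set the size of these shifts against the spread. The mean log2(CPM + 0.5) over wide regions outside genes was 2.81 ± 0.08 at 15 min, against 2.60 ± 0.05 at 0 min (SD, n = 3 each), and the libraries did not overlap (exact permutation test, two-sided, p = 0.10, the smallest that 3 against 3 libraries can give). At 30 min it was 2.76 ± 0.03, also above all libraries at 0 min (exact p = 0.10). At gene starts it was 4.82 ± 0.09 at 15 min against 4.94 ± 0.06 at 0 min, with overlap (exact permutation p = 0.2). The share of reads in wide regions outside genes was 12.7% ± 0.75 at 15 min and 12.6% ± 0.39 at 30 min, against 11.3% ± 0.37 at 0 min, without overlap. Over all wide regions the share was 48.3% ± 0.53 at 15 min, 48.6% ± 0.56 at 30 min and 47.5% ± 0.61 at 0 min, and the libraries overlapped. Over the 45 comparisons of this kind the lowest adjusted p was 0.321, so with 3 libraries a time none could pass 0.05.

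Over all positions, the level of wide regions relative to count-matched narrow regions overlapped between the times. The difference in mean log2(CPM + 0.5), wide minus narrow, was 0.035 ± 0.047 at 15 min and -0.011 ± 0.033 at 0 min (SD, n = 3; exact permutation p = 0.3). It was 0.040 ± 0.045 at 30 min (exact permutation p = 0.3 against 0 min and 0.9 against 15 min). With narrow regions matched within each position class, the change from 0 to 15 min was 0.0017 in place of 0.046 (exact permutation p = 0.8). Outside genes it was 0.066 ± 0.054 at 30 min against -0.014 ± 0.028 at 0 min, without overlap (exact permutation p = 0.10, adjusted 0.321), while the other comparisons by position overlapped. With 3 libraries a time, such a p leaves small shifts undetected.

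Outside genes, wide regions downstream and upstream of the nearest gene differed most at 15 min. Over all tested regions, 4.29% were higher and 3.96% lower at 15 against 0 min, and 0.214% and 0.49% at 30 against 15 min. Over all tested regions outside genes these shares were 6.64% and 1.58%, and 0.203% and 0.694%. The side was known for 4807 of the 6417 wide regions outside genes. Narrow regions were not split by side, so whether the difference is particular to wide regions was not tested. Of the wide regions within 15 kb downstream of the nearest gene's end, 258 were higher and 56 lower of 1470 tested at 15 against 0 min, and 9 were higher and 71 lower at 30 against 15 min. Of those within 15 kb upstream of its start, 135 were higher and 57 lower of 1195 tested at 15 against 0 min, and 12 were higher and 12 lower at 30 against 15 min. In the mean log2 level downstream minus that upstream, a library's scaling largely cancels. It was 0.307 ± 0.008 at 15 min, against 0.218 ± 0.022 at 0 min (SD, n = 3), and the 3 libraries at 15 min were above all 3 at 0 min (exact permutation p = 0.10, adjusted 0.321). The gap between these means was 0.088, and 0.077 to 0.098 with any 1 library left out. At 30 min the value was 0.207 ± 0.017, below every library at 15 min (exact p = 0.10) and overlapping 0 min. Beyond 15 kb, 1 of 458 downstream and 1 of 520 upstream regions were called at 30 against 15 min.

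**Figure D4:**
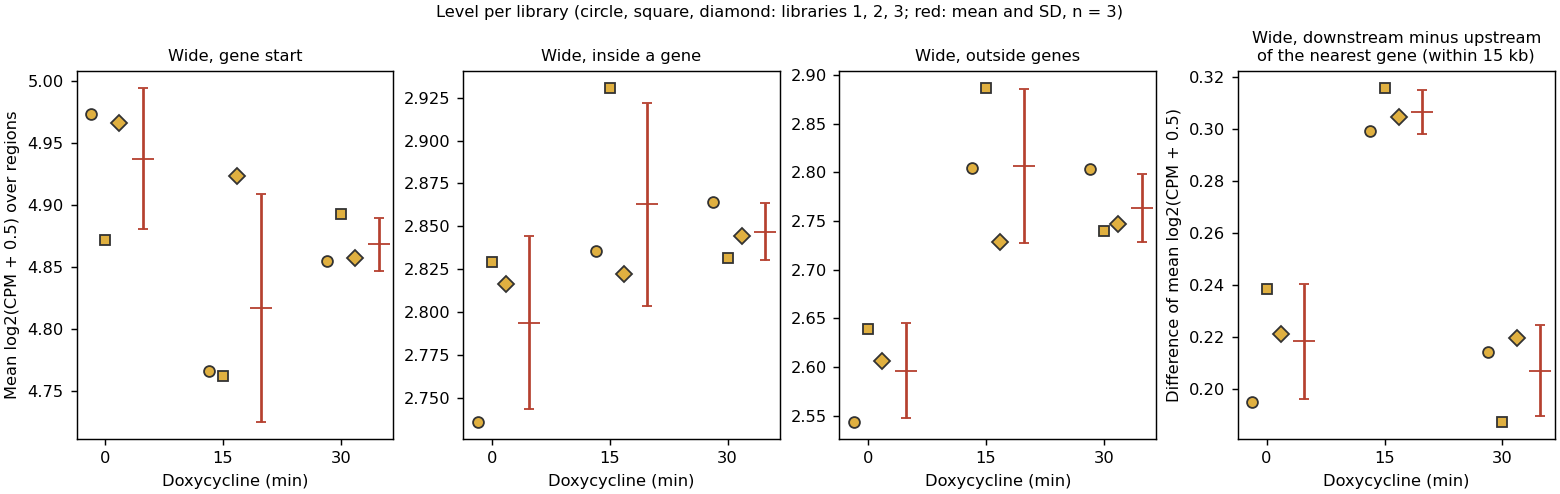
Mean log2(CPM + 0.5) over wide regions in each library at 0, 15 and 30 min, at gene starts, inside genes and outside genes, and in the last panel the mean downstream of the nearest gene minus the mean upstream of it. Symbols are libraries 1 to 3 and red bars are the mean and SD (n = 3); the vertical axes do not start at 0. In the last panel the 3 libraries at 15 min lie above all others.

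The wide regions with the largest rises at 15 against 0 min lay away from gene starts. Of the 12 named by size, 4 were inside a gene and 8 outside genes, 5 of them downstream of the nearest gene, and all 12 stayed called whichever library was left out. A gene name here gives a position and not a target. The region inside Dupd1, a gene for a dual-specificity phosphatase (chr14:21680191-21682246), had 4.07, 8.5 and 9.96 CPM at 0 min, 61.3, 78.2 and 56.4 CPM at 15 min, and 23.0, 19.8 and 24.9 CPM at 30 min. The 3 times did not overlap, and 15 min was highest. Its log2 change was 3.17 ± 0.22 at 15 against 0 min (SE; edgeR adjusted p = 3.5e-10) and 1.63 ± 0.23 at 30 against 0 min (0.00033).

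A region of 4560 bp lay 6.96 kb outside Trps1, the gene of a GATA-type zinc finger repressor (chr15:50645521-50650080). It had 5.31, 6.27 and 6.03 CPM at 0 min, 38.7, 47.9 and 37.2 CPM at 15 min, and 18.2, 16.2 and 26.5 CPM at 30 min. The order of times was the same as at Dupd1, with no overlap, and the log2 change at 15 min was 2.82 ± 0.21 (edgeR adjusted p = 2.3e-09). Inside Eml6, a gene of the microtubule-associated EML family, a region had 21.8, 24.8 and 15.3 CPM at 15 min, against 1.06, 3.58 and 1.05 CPM at 0 min. Its log2 change of 3.45 ± 0.34 was the largest of the named rises (edgeR adjusted p = 3.2e-07). At 30 min it had 4.37, 6.52 and 7.82 CPM, above every library at 0 min.

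Some of the rises had largely gone at 30 min. The region 9.12 kb downstream of Arhgap5, a gene for a GTPase-activating protein (chr12:52579987-52582206), had 7.26, 13.7 and 12.1 CPM at 0 min, 64.3, 63.7 and 52.7 CPM at 15 min, and 16.0, 18.8 and 19.4 CPM at 30 min. It was called at 15 against 0 min (2.48 ± 0.19, edgeR adjusted p = 2.6e-09) and at 30 against 15 min (-1.74 ± 0.18, 2.7e-06), and the change at 30 against 0 min was 0.74 ± 0.20 (adjusted p = 0.060). The region 10.1 kb downstream of Myo10, a myosin of filopodia, had 23.7, 28.0 and 22.3 CPM at 15 min against 4.96, 6.27 and 3.41 CPM at 0 min, and 6.92, 6.9 and 8.06 CPM at 30 min, just above the range at 0 min. Near Actr5, which encodes a subunit of the INO80 remodeler, a region had 8.0, 6.86 and 7.77 CPM at 15 min, against 1.42, 1.34 and 1.31 CPM at 0 min. It showed the largest of the named falls at 30 against 15 min, -2.79 ± 0.38 (edgeR adjusted p = 0.00014), with 0.729, 0.932 and 1.66 CPM at 30 min. DESeq2's Wald test did not call that fall, and the counts at 0 and 30 min are low, so only the 15 min libraries carry many reads. The others of the 12 were near or in Orc5 (origin recognition), Trip12 and Arih1 (ubiquitin ligases), Fads3, Gpr151 and Cd74, with log2 changes of 2.29 to 2.79.

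Others stayed high at 30 min. Inside Fads3, a desaturase-family gene, the region (chr19:10051085-10052852) had 3.01, 5.37 and 6.29 CPM at 0 min, 28.5, 38.9 and 31.1 CPM at 15 min, and 24.0, 25.7 and 30.1 CPM at 30 min. The log2 change at 30 against 0 min was 2.48 ± 0.23 (edgeR adjusted p = 3.6e-07), and 15 and 30 min overlapped. Inside Apod, the gene of a lipid carrier, the levels were 3.01, 3.36 and 4.98 CPM at 0 min, 17.8, 16.4 and 12.9 CPM at 15 min, and 23.3, 23.1 and 17.5 CPM at 30 min, a change of 2.53 ± 0.25 at 30 against 0 min (edgeR adjusted p = 7.3e-07). Inside Armc2 a region of 1002 bp, just inside the width limit, had 12.2, 14.5 and 16.6 CPM at 30 min against 3.01, 2.69 and 3.15 CPM at 0 min. Of the 10 named rises at 30 against 0 min, 8 stayed called whichever library was left out, and the exceptions were inside Duox1 and Lonrf2. The call at Duox1 was lost without library 2 at 30 min. The call at Lonrf2 was lost without libraries 1 or 3 at 0 min or library 2 at 30 min.

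Of the 12 named falls at 15 against 0 min, 7 lay at gene starts (centre within 1 kb), and 10 stayed called whichever library was left out. The centre lay 791 bp from the start at Marchf9, 684 bp at Bhlhe40 and 318 bp at Gm33258. These starts were outside the 600 bp window, so the counts there describe sequence near the start and not the start itself. The region at Unc13a, a gene of synaptic vesicle priming whose promoter is shown above (chr8:71671041-71672536), had 40.9, 22.8 and 26.7 CPM at 0 min, 9.33, 10.9 and 7.77 CPM at 15 min, and 16.2, 15.8 and 13.3 CPM at 30 min. The times did not overlap, and the change at 15 min was -1.69 ± 0.22 (edgeR adjusted p = 1.5e-05). At Nfkb2 the levels were 51.4, 40.5 and 35.4 CPM at 0 min, 14.0, 12.2 and 21.6 CPM at 15 min, and 20.0, 21.2 and 21.8 CPM at 30 min. The change at 15 min was -1.44 ± 0.19 (edgeR adjusted p = 2.6e-05), and 30 min stayed below 0 min (-1.02 ± 0.19, adjusted p = 0.0049, not called without library 1 at 0 min). Marchf9, of a family of membrane-bound ubiquitin ligases, had 9.17, 8.39 and 13.6 CPM at 15 min against 32.4, 21.5 and 31.2 CPM at 0 min. Bhlhe40, a bHLH repressor, had 6.33, 7.24 and 6.80 CPM at 15 min against 29.8, 10.3 and 13.9 CPM at 0 min, and its call was lost without library 1 at 0 min. The call at Kcnn1, a calcium-activated potassium channel gene with 1.83 to 3.40 CPM at 15 min against 6.55 to 7.16 CPM at 0 min, was lost without library 1 at 15 min.

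Other falls lay away from gene starts, and several were reversed at 30 min. The region inside the uncharacterised gene Gm34121 (chr7:56044422-56045835) had 15.2, 11.6 and 15.7 CPM at 0 min, 2.67, 4.19 and 4.13 CPM at 15 min, and 16.2, 15.3 and 10.2 CPM at 30 min. Its changes were -1.97 ± 0.27 at 15 against 0 min (edgeR adjusted p = 3.3e-05) and 1.95 ± 0.26 at 30 against 15 min (0.00015), and 0 and 30 min overlapped. The 3144 bp region inside Chid1, of a chitinase-domain protein (chr7:141534193-141537336), had 48.4, 47.9 and 53.8 CPM at 0 min, 16.3, 17.9 and 26.0 CPM at 15 min, and 59, 45.1 and 46.2 CPM at 30 min. It was called at 15 against 0 min (-1.33 ± 0.17, edgeR adjusted p = 1.3e-05) and at 30 against 15 min (1.34 ± 0.17, 5.2e-05). Upstream of Pitpnb, a phosphatidylinositol transfer protein gene, and of Ifnar1, a subunit of the type I interferon receptor, the changes at 30 against 15 min were 1.49 ± 0.24 and 1.21 ± 0.23. Pitpnb stayed called with any library left out, while Ifnar1 was not called without library 1 at 15 min or library 2 at 30 min. Outside Gm32168, by contrast, the region had 8.2, 6.71 and 7.11 CPM at 30 min, still below the 10.6, 11 and 9.18 CPM at 0 min, and 2.5, 3.43 and 4.37 CPM at 15 min. Its fall at 15 min was called (-1.61 ± 0.27, edgeR adjusted p = 0.00051) and its change at 30 against 15 min was not (1.12 ± 0.28, adjusted p = 0.060).

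The named falls at 30 against 0 min were less stable. Of 10, 1 stayed called whichever library was left out. This was inside Tmem151b, a transmembrane protein gene, with 9.84, 11.7 and 16.1 CPM at 30 min against 38.4, 26.9 and 30.7 CPM at 0 min (-1.37 ± 0.20, edgeR adjusted p = 0.00042). The other 9 were at or near Gm41937, Bhlhe40, Snx32, Fam43b, Kcnn1, 0610040F04Rik, Ryr1, Gm11725 and Prkd2, with log2 changes of -1.48 to -1.23. Library 1 at 0 min or library 1 at 30 min was among those that ended the call at each of these 9.

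**Figure D5:**
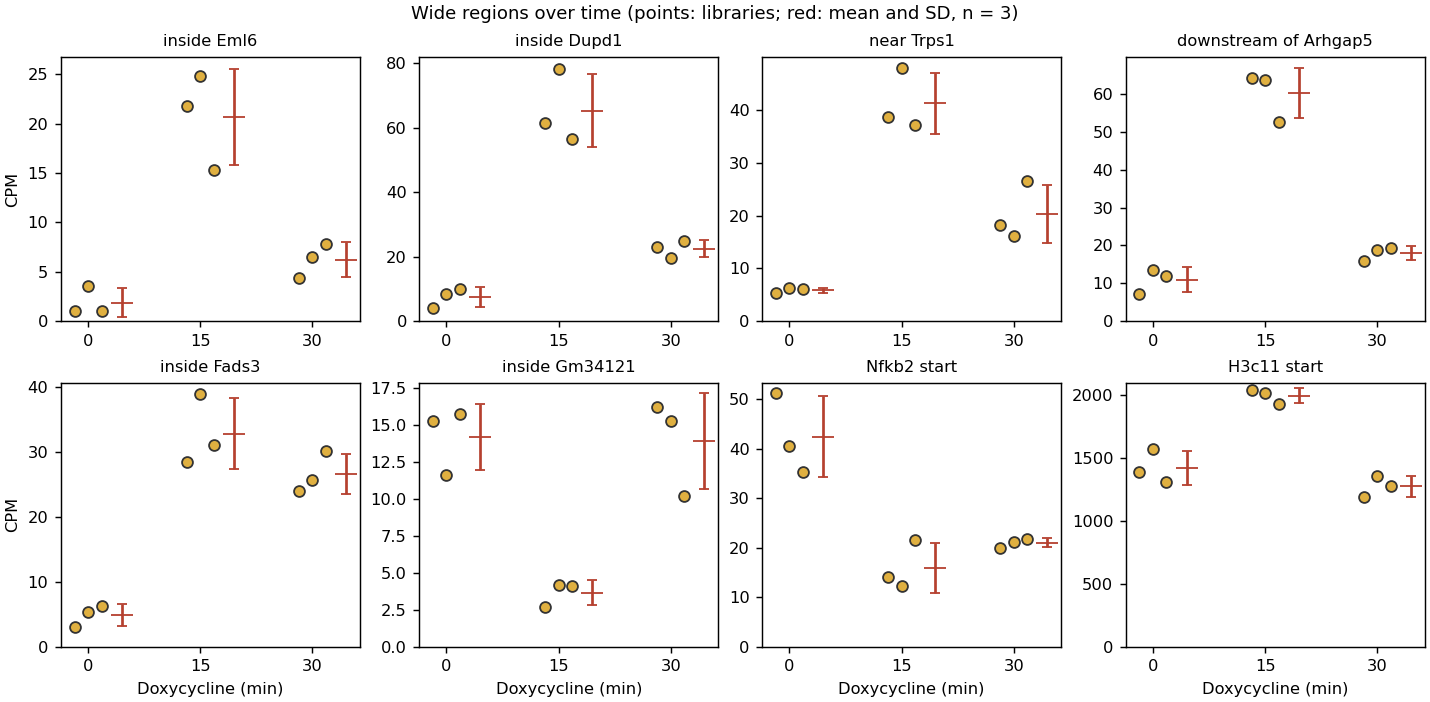
CPM of 8 wide regions in each library (points) at 0, 15 and 30 min, with the mean and SD in red (n = 3); every vertical axis starts at 0. At Dupd1, Trps1 and Arhgap5 all libraries at 15 min lie above those of the other times, at Gm34121 and Nfkb2 all libraries at 15 min are below those at 0 min, and H3c11 spans 1193 to 2046 CPM.

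The strongest wide regions were mostly at histone genes. Of the 10 with the highest mean CPM, 6 lay at starts of histone genes, namely H4bc24, H2ac19, H2ac11, H3c11, H3c3 and H2ac18. The strongest, at H4bc24 (chr13:21832953-21834458), had 2360, 2385 and 2123 CPM at 0 min, 2973, 2723 and 2842 CPM at 15 min, and 1517, 2120 and 2055 CPM at 30 min. It held the minus-strand start of H2ac24 as well. The region of 4028 bp at H3c11 had 2046, 2022 and 1932 CPM at 15 min, against 1394, 1573 and 1309 CPM at 0 min (0.49 ± 0.08, edgeR adjusted p = 0.00027). At 30 min it had 1193, 1356 and 1280 CPM, a change of -0.65 ± 0.08 from 15 min (adjusted p = 3.4e-05). In both regions the 15 min libraries were above all others.

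Counting every wide region at a histone gene start, a group picked after these values were seen, gave 13 regions, all tested. At 15 against 0 min 10 were called higher and none lower, beside 4.29% and 3.96% of all tested regions, and the 13 log2 changes ran from 0.27 to 0.49. At 30 against 15 min 13 were called lower, beside 0.49% of all tested regions, with changes of -0.65 to -0.41 and a median of -0.53. At 30 against 0 min 1 was called lower, at a median of -0.18. With TMM factors from gene starts alone, 13 were higher at 15 min and 13 lower at 30 against 15 min. The 10 higher calls became 5 without library 1 and 3 without library 3 at 0 min, and 4 and 6 without libraries 1 and 2 at 15 min, while DESeq2's Wald test called 4. The 13 lower calls became 8 without library 1 at 15 min and 6 without library 1 at 30 min. Histone genes are near-identical copies, so reads may be split between them, and the 6 named lie in clusters on chromosomes 3 and 13. Of the list of replication-dependent histones, 3 of 9 genes with a region had a wide one, and 1 of these, H1f0, is known as a linker histone made outside S phase too.

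The other 4 of the strongest 10 differed. Elobl, an elongin B-like gene, had 1665, 1799 and 1511 CPM at 15 min against 752, 999.1 and 986 CPM at 0 min (0.86 ± 0.10, edgeR adjusted p = 2.9e-06) and stayed above 0 min at 30 min with 1333, 1279 and 1536 CPM. The region at the U3 small nucleolar RNA gene Rnu3a, which guides ribosomal RNA processing, ranged from 1196 to 3232 CPM over the libraries at 30 min and from 1321 to 2044 CPM at 0 min, and was not called. It also held the start of Gtf3c6, and U3 genes have copies, so its source is uncertain. Rdm1 and Gm15319 were not called in any comparison.

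Of the 8 widest regions, 2 were called in some comparison. The widest, a region of 9196 bp that lay 3.55 kb downstream of the lncRNA gene Gm26510 (chr17:70868541-70877736), had 539, 586 and 600 CPM at 0 min, 633, 674 and 659 CPM at 15 min, and 663, 663 and 692 CPM at 30 min. The 15 and 30 min libraries were above those at 0 min, but the log2 changes of 0.19 ± 0.08 and 0.23 ± 0.08 were not called (edgeR adjusted p = 0.16 each). The next, near Gm14322, with 7988 bp, was called higher at 15 min (0.62 ± 0.14, edgeR adjusted p = 0.0052, lost without library 2 at 15 min), with 51.2, 67.7 and 56.8 CPM at 15 min against 37.9, 41 and 35.1 CPM at 0 min. Regions of 7152 to 7636 bp inside Trim69, Manba, Zfp90, Tspan5 and Slc37a2 were not called, and the 7278 bp region inside Bcam, a laminin-binding adhesion receptor, was called lower at 30 against 0 min (-0.47 ± 0.11, edgeR adjusted p = 0.026). That call was lost without 5 of the 6 libraries compared. As a class, regions of 3000 bp and wider were called in 25.2% at 15 against 0 min, with 337 higher and 128 lower of 1847 tested, at a median mean count of 109. Over all tested regions the share was 8.25% (4.29% higher and 3.96% lower). Narrow regions were not matched to this class alone, so width and read depth cannot be told apart here.

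Some genes held many wide regions. In all 4773 genes had a wide region inside, away from the start, and 165 had 5 or more, together 1051 regions. Arhgef3, a guanine nucleotide exchange factor gene of 289 kb, had the largest number, 14, and Casz1, Dpp6 and Ttc28 had 13 each; these 4 were picked for their number. At Casz1, a zinc finger gene of 151 kb, the 13 regions covered 15.2% of the gene and all were tested, with 1 lower at 15 against 0 min and 1 lower at 30 against 0 min. Over all tested regions, 3.96% and 0.497% were called lower in these comparisons. At Dpp6, a gene of a potassium channel partner that spans 910 kb, 8 of 13 were tested and 4 were higher at 15 against 0 min, with a median log2 change of 0.77, beside 4.29% of all tested regions called higher. In Arhgef3 and in Ttc28, 5 regions each were tested and 0 were called in any comparison. With 8.25% of all tested regions called at 15 against 0 min, 5 regions are too few to show a difference.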

How the data were processed

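Raw read counts per 600 bp window were deposited by the authors for 9 libraries. Other deposited values are the start and end of each region and window on mm10. Per the submitters' processing notes, HISAT2, featureCounts and DESeq2 1.26.0 were used; their settings and the strand counted are not given in the sources used here, and the deposited region list carries the names of Tfit and muMerge. The Drosophila spike was not used here, so changes are relative to other regions.

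Counts were tested in R 4.3.3 with edgeR 4.0.16: default expression filter (54299 of 174289 regions tested), TMM factors of 0.971 to 1.02, 1 quasi-likelihood fit of all libraries with time as a factor, and Benjamini-Hochberg adjustment over all tested regions at 0.05. SEs were obtained by dividing the log2 change by the square root of F. Narrow regions were weighted in 20 quantile bins of the wide regions' mean count. Values per library were compared by exact permutation over 20 splits, two-sided, and adjusted over 45 tests. The script was tested on simulated counts.

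Positions and promoters came from RefSeq tables of GRCm38.p6 (39334 of 49997 genes used). A start is from the promoter table (27025 genes); for other genes, with no strand at hand, either end counted as a start, and 2158 of 3069 wide regions at gene starts had a known strand. The gene named is the nearest.

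Wide regions were named as the 12 (15 against 0 min), 10 (30 against 0 min) and 6 (30 against 15 min) largest called changes in each direction, averaging 20 counts or more in the libraries of that comparison, without overlap in CPM, plus the 8 widest, the 10 strongest and the 3 strongest per list. Some regions that meet these rules are not reported here. Lists were written from general knowledge. Members, lists and comparisons were chosen with earlier results of these data known. Alternatives were DESeq2 1.42.0 (size factors, Wald test), TMM on gene starts (for promoters chosen after seeing the data), 2 other filters, only the groups compared, a replicate block, non-overlapping windows, a 500 bp limit for starts, 300 to 400 bp narrow regions, 1200 bp wide regions, a pseudocount of 2 CPM, matching within positions and each library left out.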

Additional observations from a re-analysis of the deposited data

How the results depend on the processing

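The number of wide regions called at 15 against 0 min was 2179, and between 1210 and 2713 with 1 library left out; the corresponding numbers were 599, 118 to 876, at 30 against 0 min and 284, 120 to 358, at 30 against 15 min. Under DESeq2 size factors, the DESeq2 Wald test, TMM on gene starts, both other filters, only the groups compared, non-overlapping windows and a 1200 bp limit, these counts stayed within 1.5 times of the main ones. TMM on gene starts moved the split furthest, to 85.3% of calls higher in place of 60.4% at 15 min, 92.7% in place of 76.8% at 30 min and 13.6% in place of 26.4% at 30 against 15 min. Library numbers did not pair the samples (correlations of same-numbered deviations -0.048 to 0.175), and with the replicate block 2298, 688 and 309 wide regions were called. The wide minus narrow level at 30 minus 15 min, 0.005, was -0.0052 from 1200 bp up and between -0.0215 and 0.0303 with 1 library left out, all within the spread between libraries. A 500 bp limit for gene starts gave 14.3% of wide regions at gene starts, 47.3% inside and 38.3% outside genes. Narrow regions of 300 to 400 bp and a pseudocount of 2 CPM moved the wide minus narrow level differences by less than the spread between libraries. Matching within positions moved the one at 15 minus 0 min further, to 0.0017 in place of 0.046, and the one at 30 minus 0 min to 0.023 in place of 0.051. Chosen after seeing the data, narrow regions whose windows overlap no other, count-matched, lay at gene starts in 32.1% and were called in 0.615% at 30 against 0 min and 0.718% at 30 against 15 min. Without library 3 at 15 min, also chosen then, 622 in place of 358 gene-start regions were lower at 15 min, and 54 in place of 16 gene-start and 50 in place of 33 inside-gene regions were higher at 30 against 15 min. Of 77 named changes, none turned under any alternative. Under alternatives that kept all libraries 29 of 616 values lost the call, 12 of them in the DESeq2 Wald test and 7 with TMM on gene starts, and 103 of 693 did with 1 library left out. At 3 libraries a time and a median of 42.4 reads per window, small changes are not detectable, and the 3417 wide regions under the filter give no call either way.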
